A study of Homo sapiens with 6 samples.

Results

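The genes described are those of the translation initiation factors, taken as the probe sets whose only annotated gene symbol starts with EIF and a digit from 1 to 6. The stress kinase genes EIF2AK3 and EIF2AK4 were left out of them and are described with the related genes. They comprised 48 of the 18417 genes measured, and 54 of 19460 probe sets. For the 5 genes with several probe sets, the brightest by its average across the 6 arrays stood for the gene. The symbol also took in EIF3J-DT, a long non-coding RNA transcribed beside EIF3J, which is no factor and is given apart. EIF1AY was counted with the others and is given no value. EIF5A, EIF3C, EIF4A1 and EIF4EBP3 appeared only on probe sets that list further genes, so they are not among the 48.

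The cells were RPMI 8226, an established human multiple myeloma line, that is, malignant plasma cells kept in culture. The irradiated group comprised 3 samples taken 1 day after 6 Gy of carbon ions, a form of radiation whose ionizations lie densely packed on the path of each particle. The unirradiated group comprised 3 samples labelled 0 Gy and 1 day. Both groups were the same line in the same medium, with no other agent named, and the comparison asks which transcripts differ 1 day after the dose. The labels number the samples 1 to 3 in each group and do not say whether each was a culture of its own, so the p-values refer to sample-to-sample spread that may be technical. As the samples were bulk RNA, fewer cells and less RNA per cell cannot be told apart.

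Values are the deposited probe set intensities, read as log2, 1 per probe set and array. Array medians lay between 5.66 and 5.72 on the irradiated arrays and between 5.64 and 5.67 on the unirradiated arrays. The upper quartile was 7.87 to 7.91 on the irradiated arrays and 7.92 to 7.96 on the unirradiated arrays. Of 9 measured plasma cell markers, 7 (SDC1, TNFRSF17, IRF4, PRDM1, XBP1, CD38 and MZB1) lay above the upper quartile on every array, and the other 2 lay below the median on every array. All 4 monocyte markers lay below the median on every array, and 0 of 4 T cell markers lay above the upper quartile on every array. Of 5 fibroblast or epithelial markers, KRT18 and EPCAM lay above it. The summed log2 values of the monocyte list were 16.4 to 16.9 on irradiated arrays and 15.8 to 16.5 on unirradiated arrays. Those of the T cell list were 20.8 to 21.5 on irradiated arrays and 20.2 to 21.0 on unirradiated arrays, and those of the fibroblast or epithelial list were 37.7 to 38.0 on irradiated arrays and 37.6 to 37.7 on unirradiated arrays. Their part in the results was not tested. Differences are irradiated minus unirradiated on the log2 scale, with the standard error (SE) and 95% interval of limma. A gene is said to have risen or fallen where limma's Benjamini-Hochberg adjusted p over all 18417 genes was under 0.05. Precision is limited by having 3 arrays in a group, and the median SE over the initiation factor genes was 0.07.

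Initiation brings a ribosome to the start codon of an mRNA. The factor eIF2 carries the initiator tRNA to the small subunit with GTP, and eIF2B reloads eIF2 with GTP afterwards. Phosphorylation of the alpha subunit of eIF2 by stress kinases turns eIF2 into an inhibitor of eIF2B, which lowers general translation and raises that of ATF4. The cap-binding protein eIF4E, the scaffold eIF4G and the helicase eIF4A form eIF4F, which opens the mRNA for scanning, and the 4E-binding proteins hold eIF4E back until the kinase mTORC1 phosphorylates them. Plasma cells and myeloma cells make large amounts of secreted protein and depend on this machinery.

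Most of these genes differed little between irradiated and unirradiated cells. The gene of the catalytic subunit of eIF2B, EIF2B5, fell, as did EIF4EBP1, which encodes the main eIF4E-binding inhibitor, and EIF6, which encodes a factor that keeps the large ribosomal subunit from joining too early, rose. The other 45 did not pass the test. Thus 3 of 48 genes (6.25%) were called, beside a background of 14.5% over all genes. By direction, 1 of the 48 was higher, beside 1169 of 18417 genes (6.35%), and 2 were lower, beside 1507 (8.18%). The low share depends on the variance model. When limma's prior variance was made to follow the intensity and, in the same setting, fitted robustly, 9 of 48 (18.8%) passed, beside 17.6% of all genes. These were the 3 called genes with EIF1, EIF2A, EIF3D, EIF4B, EIF4EBP2 and EIF4G2. The changes of this setting were not run apart.

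The values can also be read as bounds. Of the 48 genes, 34 (70.8%) had a 95% interval that lay wholly within a 1.25-fold difference either way, beside 54.0% of all genes. The difference was under 0.25 in size on the log2 scale for 43 of the 48 genes (89.6%), beside 81.6% of all genes. EIF2B5 alone exceeded 0.5 in size, as 3.44% of all genes did. The intervals are per gene and not adjusted for the number of genes.

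As a list the genes lay slightly below the bulk. Their median difference was -0.026, against 0.039 over all genes, with 19 positive and 29 negative. They are bright on these arrays: 39 of the 48 were among the 4604 genes with the highest mean level. Those 39 had a median difference of -0.029 with 5.13% called, beside -0.0050 with 21.6% called for all 4604. The part of brightness and of the lower upper quartile of the irradiated arrays in the list's median was not tested. The groups did not overlap for 21 of 48 genes (43.8%), beside 34.7% of all genes. Of the 48, 16 were lower and 5 higher after irradiation, beside 2889 (15.7%) and 3494 (19.0%) of all 18417 genes. Among the 39 bright genes the share without overlap was 48.7%, beside 48.8% of all 4604. Of the 39, 14 were lower and 5 higher, beside 1193 and 1054 of the 4604. In both comparisons the lower share of the list was above that of the genes beside it, and the higher share below. This was not tested.

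**Figure D1:**
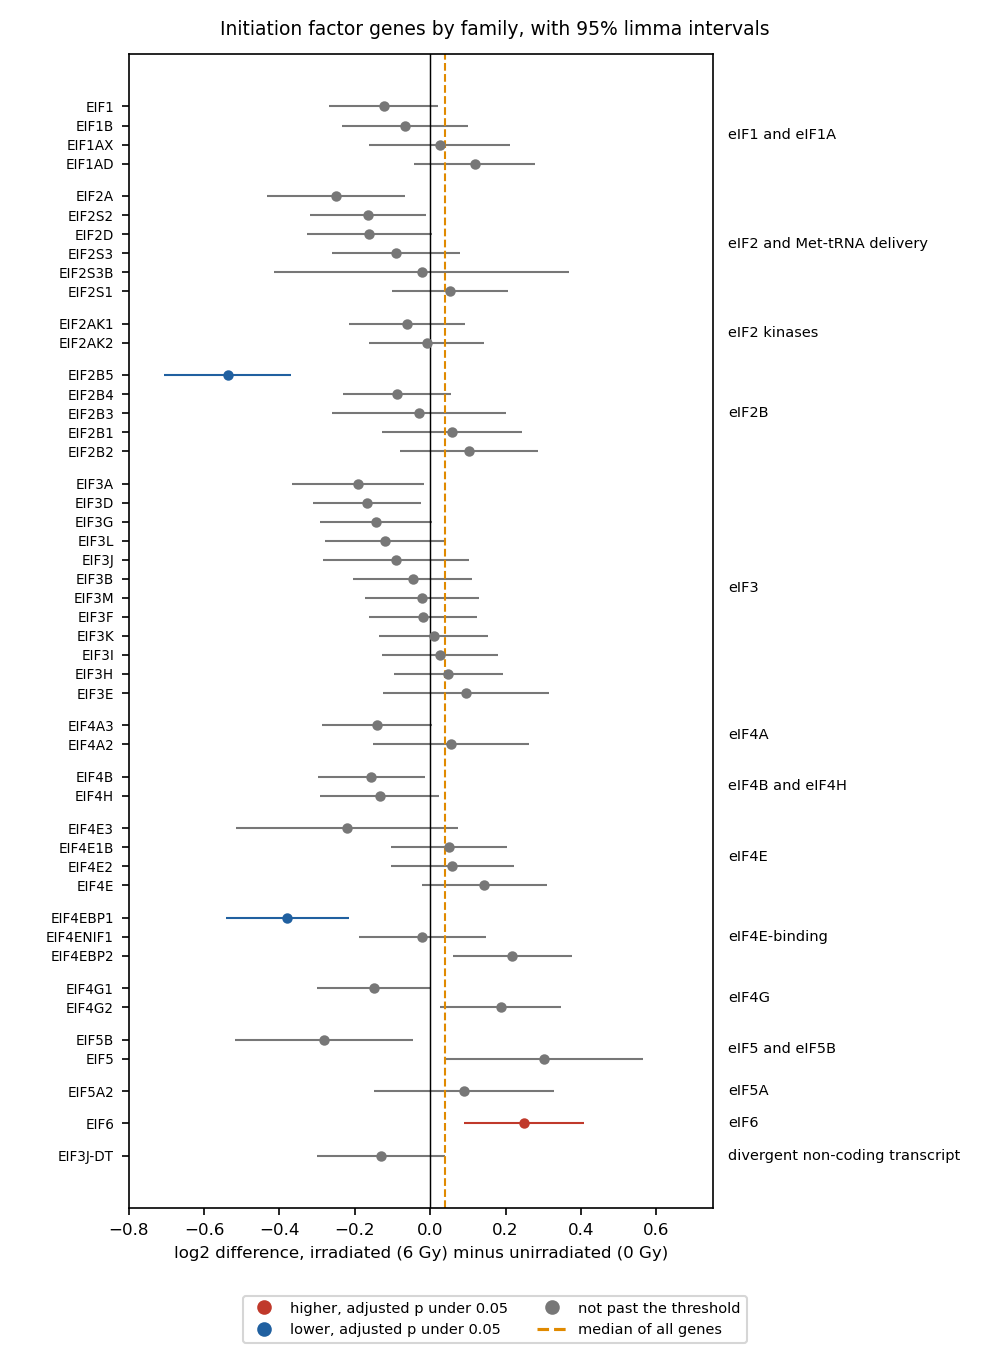
Log2 difference between irradiated (6 Gy) and unirradiated (0 Gy) cells on the x axis for 47 initiation factor genes, grouped by family down the page, with 95% limma intervals (n = 3 arrays per group). EIF2B5 at -0.54 and EIF4EBP1 at -0.38 stand to the left and EIF6 at 0.25 to the right, and most other intervals cross 0 or lie close to it; the dashed line is the median of all genes, 0.039.

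Promoter sequences of 2 kinds are shown: the start sites of the genes that open with a pyrimidine tract, since such tracts mark mRNAs of the translation machinery, and the upstream windows of EIF2B5 and EIF6, since these genes passed the test. Sequences are those of RefSeq on GRCh38.p14 for the 40 of the 48 genes matched there. EIF4EBP1, EIF3E, EIF3A, EIF2AK1, EIF3H, EIF3L, EIF2S2 and EIF3G were not used here. Many mRNAs of the translation machinery begin with a terminal oligopyrimidine (TOP) tract, a C followed by further pyrimidines, through which mTORC1 and LARP1 control how well they are translated. A C followed by 4 pyrimidines stood at an annotated start of 10 of the 40 genes (25%), beside 4.07% of 35116 single RefSeq starts. A gene counted if any of its annotated starts matched, so the shares of genes and of starts are in unlike units. For each of the 10 genes the first matching start is printed 5′ to 3′, with 20 bases before it and 10 from it on. Capitals mark the first 5 transcribed bases.
EIF2A (chr3:150546767-150546796, plus strand): aactctcacccgagcggtttCTCTTtccgg
EIF2D (chr1:206612456-206612485, minus strand): gccctggtttccagccgggcCCTTTtcgcg
EIF2S3 (chrX:24054936-24054965, plus strand): cagccggggtgatttccttcCTCTTttggc
EIF2S3B (chr12:10505870-10505899, plus strand): cagccggggtgactttcttcCTCTTttggc
EIF3D (chr22:36529157-36529186, minus strand): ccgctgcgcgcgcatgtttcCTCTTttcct
EIF3F (chr11:7987317-7987346, plus strand): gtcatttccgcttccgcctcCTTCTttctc
EIF3K (chr19:38619168-38619197, plus strand): gtcgtttccgtttccaccacCTCTTcctgt
EIF3M (chr11:32583811-32583840, plus strand): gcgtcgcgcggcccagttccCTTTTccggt
EIF4A2 (chr3:186783557-186783586, plus strand): gggtggttgggcgccgctgtCTTTTcagtc
EIF4B (chr12:53006436-53006465, plus strand): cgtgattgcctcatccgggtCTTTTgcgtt
Of the 10 genes with such a start, 0 passed the reported test, beside 14.5% of all genes. EIF2A, EIF3D and EIF4B among them passed with the intensity trend and robust prior. The differences of the 10 genes ran from -0.25 for EIF2A to 0.05 for EIF4A2 with a median of -0.06. The other 30 genes with an entry had a median of 0.0078 and included EIF2B5 and EIF6.

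The 250 bases before the start of EIF2B5 and of EIF6 (the farthest upstream start listed) are printed with any of 3 motifs in capitals, searched on both strands. The motifs were CACGTG, the E-box of MYC and its partners, which reads the same on both strands, TGATGNAA, the core of the element bound by ATF4 with a C/EBP protein, and CCGGAAGT, an ETS factor site. No more than 1 match stood in either window, so none overlapped another.
EIF2B5 (chr3:184135108-184135357, plus strand): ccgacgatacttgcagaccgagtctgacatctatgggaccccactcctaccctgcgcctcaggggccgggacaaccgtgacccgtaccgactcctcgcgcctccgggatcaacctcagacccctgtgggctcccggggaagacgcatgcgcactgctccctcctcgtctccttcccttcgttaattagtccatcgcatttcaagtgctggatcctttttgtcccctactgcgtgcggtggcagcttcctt
EIF6 (chr20:35284773-35285022, minus strand): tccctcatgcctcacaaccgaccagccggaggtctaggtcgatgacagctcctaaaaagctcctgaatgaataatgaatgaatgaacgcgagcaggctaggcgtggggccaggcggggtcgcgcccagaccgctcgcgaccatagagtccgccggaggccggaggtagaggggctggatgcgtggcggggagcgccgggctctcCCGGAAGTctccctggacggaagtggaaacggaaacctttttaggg
EIF6 held 1 CCGGAAGT, and EIF2B5 held none of the 3 strings of letters in this window. CACGTG stood before a listed start of 11 of the 40 genes (27.5%), beside 6.34% of all single windows of this length. Here and below a gene counted if any of its listed starts matched, so a gene could have several chances. The shares of genes and of windows are thus in unlike units. These 11 were EIF1B, EIF2AK2, EIF2B3, EIF3F, EIF3K, EIF4A3, EIF4B, EIF4E, EIF4G1, EIF4H and EIF5A2. None of the 11 passed the reported test, beside 14.5% of all genes, and EIF4B passed with the intensity trend and robust prior. The differences of the 11 ran from -0.16 to 0.14. CCGGAAGT stood before 5 of the 40 genes (12.5%), beside 3.42% of all single windows, and TGATGNAA before EIF4E3 alone (2.50%), beside 3.14%. A match is a run of letters and not a site shown to be bound.

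The guanine nucleotide exchange factor eIF2B has 5 subunits, and its gene family held the largest difference. EIF2B5, which encodes the catalytic epsilon subunit, had values of 7.76, 7.97 and 7.83 in irradiated replicates 1 to 3, against 8.34, 8.42 and 8.42 in unirradiated replicates 1 to 3. Every irradiated array lay below every unirradiated array. The mean was 7.85 ± 0.11 in irradiated cells and 8.39 ± 0.05 in unirradiated cells (SD, n = 3 each), which is 1.45-fold lower in irradiated cells. The log2 difference was -0.54 ± 0.08 (SE), with a 95% interval from -0.71 to -0.37 and a limma adjusted p of 0.00169. It kept its sign and its call in all 15 alternative settings, with adjusted p between 2.22e-04 and 0.00993.

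The other 4 eIF2B subunit genes differed by between -0.09 and 0.10, and 0 of them passed. They were EIF2B4 (delta, -0.09 ± 0.06 SE), EIF2B3 (gamma, which pairs with epsilon in the catalytic part, -0.03 ± 0.10), EIF2B1 (alpha, 0.06 ± 0.08) and EIF2B2 (beta, 0.10 ± 0.08). Each of these 4 intervals lay within a 1.25-fold difference, and the groups overlapped for all but EIF2B4, which was lower in every irradiated array. Taken against the mean of the other 4 on the same array, EIF2B5 stood at -0.60, -0.39 and -0.65 on the irradiated arrays, against -0.11, 0.03 and 0.08 on the unirradiated arrays, each relative to the unirradiated mean. A shift of a whole array cancels in this ratio. It was formed after the values of EIF2B5 were seen and is given with no test.

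**Figure D2:**
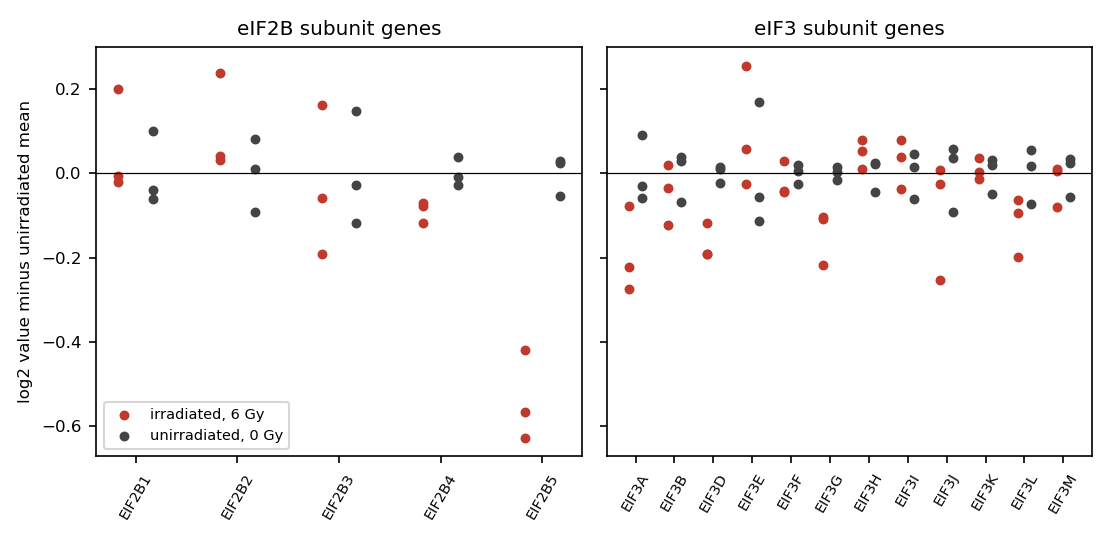
Log2 value of each array minus the mean of the 3 unirradiated arrays (y axis) for the measured eIF2B (left) and eIF3 (right) subunit genes, with irradiated arrays in red to the left of the unirradiated arrays in grey. The 3 irradiated values of EIF2B5 lie below its 3 unirradiated values by more than in any other subunit shown, while the points of most other subunits mix around 0.

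The genes that supply the initiator tRNA did not pass. EIF2S1, which encodes the alpha subunit that the stress kinases phosphorylate, differed by 0.05 ± 0.07 (SE), with values of 9.97, 9.97 and 9.96 in irradiated cells and of 9.90, 9.84 and 10.00 in unirradiated cells. EIF2S2 (beta) differed by -0.16 ± 0.07 and EIF2S3 (gamma, which holds the GTP) by -0.09 ± 0.08. EIF2A encodes a separate protein that can deliver the initiator tRNA without eIF2. Its values were 10.35, 10.49 and 10.26 in irradiated cells, against 10.59, 10.55 and 10.72 in unirradiated cells, and the groups did not overlap. The difference was -0.25 ± 0.08 (SE), with a limma adjusted p of 0.0696. The call of EIF2A turned on the setting: it passed without irradiated replicate 2 (0.0452), and its adjusted p ran from 0.0181 to 0.195 over the alternatives. EIF2D, whose product can also bring tRNA to the ribosome, differed by -0.16 ± 0.07, and EIF2S3B by -0.02 ± 0.18 at a level of about 4, near the lower quartile of the arrays. EIF2S3B is a close copy of EIF2S3, so its probes could also read EIF2S3 RNA, which was not tested.

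The eIF2 alpha kinase genes among the 48 did not pass either. EIF2AK1, encoding the kinase HRI that senses haem and mitochondrial stress, differed by -0.06 ± 0.07 (SE). EIF2AK2, encoding the double-stranded RNA sensor PKR, differed by -0.0093 ± 0.07, and its groups overlapped.

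The scaffold eIF3, the largest factor, was measured through 12 subunit genes. Beside 14.5% of all genes, none of the 12 passed in the reported test. Their differences lay between -0.19 and 0.10 with a median of -0.03, and 11 of the 12 intervals lay within 1.25-fold. The smallest p was that of EIF3D, which encodes a subunit that can itself bind the cap of some mRNAs. Its values were 11.89, 11.97 and 11.89 in irradiated cells and 12.09, 12.10 and 12.06 in unirradiated cells. The difference was -0.17 ± 0.06 (SE) with a limma adjusted p of 0.114. EIF3D passed with the intensity trend and robust prior (0.0153). EIF3A, encoding the large core subunit, had the largest difference, -0.19 ± 0.08. It had values of 10.07, 10.27 and 10.13 in irradiated cells, against 10.32, 10.44 and 10.29 in unirradiated cells. The groups did not overlap for 3 of the 12, EIF3A, EIF3D and EIF3G (-0.14 ± 0.07), and all 3 were lower. The other 9 overlapped. Over all genes the groups did not overlap for 34.7%, with 15.7% lower and 19.0% higher. EIF3L differed by -0.12, EIF3J by -0.09, EIF3B by -0.05, EIF3M and EIF3F by -0.02 each, EIF3K by 0.0090, EIF3I by 0.03, EIF3H by 0.05 and EIF3E by 0.10.

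Among the cap-side factors, EIF4EBP1 fell. The protein it encodes, 4E-BP1, binds eIF4E in its unphosphorylated form and keeps it from eIF4G, and the gene is a known target of ATF4. The values were 9.77, 9.89 and 9.72 in irradiated cells, against 10.10, 10.21 and 10.20 in unirradiated cells, with no overlap. The mean was 9.79 ± 0.09 in irradiated cells and 10.17 ± 0.06 in unirradiated cells (SD, n = 3 each), which is 1.30-fold lower in irradiated cells. The difference was -0.38 ± 0.07 (SE), with a 95% interval from -0.54 to -0.22 and a limma adjusted p of 0.00818. The call held in all 15 alternative settings, with adjusted p up to 0.0380.

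The paralogue EIF4EBP2 stood on the other side without passing. Its values were 11.11, 11.10 and 11.13 in irradiated cells, against 10.80, 10.89 and 10.99 in unirradiated cells, a difference of 0.22 ± 0.07 (SE) with a limma adjusted p of 0.0693. The groups did not overlap. It passed in 2 alternative settings, with the dimmest genes dropped and with the intensity trend and robust prior. The ratio of EIF4EBP1 to EIF4EBP2, relative to its unirradiated mean, was -0.62, -0.49 and -0.69 on the log2 scale on the irradiated arrays, against 0.02, 0.04 and -0.06 on the unirradiated arrays. This pair was set together after the values were seen. EIF4ENIF1, which encodes the eIF4E transporter 4E-T, differed by -0.02 ± 0.08.

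**Figure D3:**
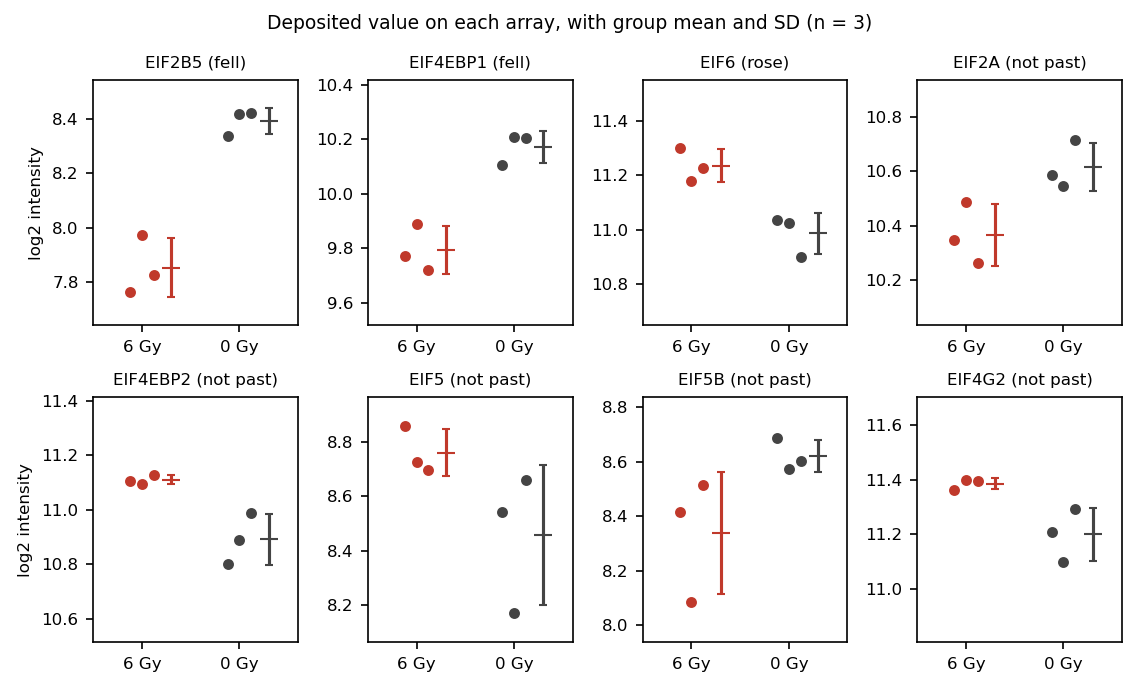
Deposited log2 intensity (y axis, each panel spanning 0.9 log2 units) of 8 initiation factor genes on each irradiated (6 Gy, left, red) and unirradiated (0 Gy, right, grey) array, with the group mean and SD beside the points (n = 3). EIF2B5, EIF4EBP1 and EIF6 passed the test. EIF2A, EIF4EBP2, EIF5, EIF5B and EIF4G2 did not, although their groups do not overlap. They were picked by hand from the 18 uncalled genes without overlap, of which 14 were lower and 4 higher in irradiated cells. The panels therefore do not show that balance of directions.

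Those genes of eIF4F and its helpers that were tested did not pass in the reported test. EIF4A1 was not tested, as it appeared only on probe sets that list further genes. The EIF4E probe set read 4.96, 4.93 and 5.03 in irradiated cells and 4.94, 4.81 and 4.75 in unirradiated cells, with overlapping groups and a difference of 0.14 ± 0.07 (SE). These values are below the array medians, and whether they lie above background is not known, so they bound the cap-binding protein's mRNA poorly. EIF4E2, which encodes the repressive cap-binding paralogue 4EHP, differed by 0.06 ± 0.07, EIF4E1B by 0.05 ± 0.07 and EIF4E3 by -0.22 ± 0.13. EIF4G1, the main scaffold gene, had values of 11.26, 11.15 and 11.29 in irradiated cells, against 11.37, 11.38 and 11.40 in unirradiated cells, a difference of -0.15 ± 0.07. EIF4G2, encoding DAP5, a scaffold that lacks the eIF4E-binding part, lay the other way, with 11.36, 11.40 and 11.40 in irradiated cells, against 11.21, 11.10 and 11.29 in unirradiated cells and a difference of 0.19 ± 0.07. The limma adjusted p was 0.174 for EIF4G1 and 0.114 for EIF4G2, and the groups of each gene did not overlap. EIF4G2 passed with the intensity trend and robust prior (0.0277).

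The helicase gene EIF4A2 differed by 0.05 ± 0.09 (SE), and EIF4A3, whose product sits in the exon junction complex rather than in eIF4F, by -0.14 ± 0.07. EIF4B and EIF4H encode proteins that stimulate the helicase. They differed by -0.16 ± 0.06 and -0.13 ± 0.07, each with groups that did not overlap. EIF4B had 3 probe sets, whose differences were -0.16, -0.32 and -0.21. Their mean passed the test at -0.23 with a limma adjusted p of 0.0454, and no probe set did so by itself. The brightest of them passed with the intensity trend and robust prior (0.0276). The 2 probe sets of EIF4H differed by -0.13 each. Those of EIF4A2 differed by 0.05 and 0.26, those of EIF3F by -0.02 and 0.10 and those of EIF1AX by 0.02 and 0.10. Whether each of these probe sets, including those of EIF4B, reads only its own gene was not tested.

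The factors of start codon choice and subunit joining showed opposite values that did not pass. EIF5, which encodes the GTPase-activating protein of eIF2, had 8.86, 8.72 and 8.70 in irradiated cells, against 8.54, 8.17 and 8.66 in unirradiated cells. The difference was 0.30 ± 0.12 (SE), the largest positive one among the 48 with all arrays in, and the limma adjusted p was 0.115. EIF5B, which encodes the GTPase that joins the ribosomal subunits, had 8.41, 8.09 and 8.52 in irradiated cells, against 8.69, 8.57 and 8.60 in unirradiated cells. Its difference was -0.28 ± 0.11 with an adjusted p of 0.105. In both genes 1 array lay apart from its group: unirradiated replicate 2 for EIF5 and irradiated replicate 2 for EIF5B. Without that array the difference was 0.16 for EIF5 (limma adjusted p 0.307), which is then below that of EIF6 (0.27), and -0.16 for EIF5B (0.244). EIF5B passed without irradiated replicate 3 (0.0472), and its adjusted p ran up to 0.245 with 1 array left out. The eIF1 and eIF1A genes, whose products keep scanning ribosomes from starting at wrong codons, differed by -0.12 (EIF1), -0.07 (EIF1B), 0.02 (EIF1AX) and 0.12 (EIF1AD, a relative of eIF1A), and 0 of the 5 in this family passed. The groups of EIF1 did not overlap, with 12.79, 12.84 and 12.74 in irradiated cells, against 12.90, 12.91 and 12.91 in unirradiated cells. EIF1 passed with the intensity trend and robust prior.

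EIF6 rose. It encodes a factor that binds free large ribosomal subunits, in their assembly and as a guard against joining without an mRNA. Its values were 11.30, 11.18 and 11.23 in irradiated cells, against 11.04, 11.03 and 10.90 in unirradiated cells, with no overlap. The mean was 11.24 ± 0.06 in irradiated cells and 10.99 ± 0.08 in unirradiated cells (SD, n = 3 each), which is 1.19-fold. The difference was 0.25 ± 0.07 (SE), with a 95% interval from 0.09 to 0.41 and a limma adjusted p of 0.0450. The call stood at the edge of the threshold: it ended with any 1 of the 6 arrays left out (adjusted p from 0.0604 to 0.135), with quantile normalization (0.0613) and with array medians subtracted (0.0675). EIF5A2, encoding a hypusine-bearing factor, differed by 0.09 ± 0.11 at a level below the lower quartile of the arrays. The non-coding EIF3J-DT differed by -0.13 ± 0.08, beside -0.09 for EIF3J.

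Other genes of translation were read from the same fit through 7 lists, and 11 of 73 measured genes (15.1%) passed, beside 14.5% of all genes. Of the 73, 3 were higher and 8 lower, beside 1169 (6.35%) and 1507 (8.18%) of all 18417 genes. In the list of mTORC1 and S6 kinase, the growth signal upstream of the 4E-binding proteins, 1 of 11 rose and 1 fell. These were 18.2% of the list, beside 14.5% of all genes, and both encode inhibitors of the complex. DEPTOR fell to 9.02 ± 0.07 in irradiated cells, against 9.84 ± 0.05 in unirradiated cells (SD, n = 3 each), and AKT1S1, which encodes PRAS40, reached 9.29 ± 0.07 in irradiated cells, against 8.74 ± 0.04 in unirradiated cells. The log2 differences were -0.83 ± 0.07 (SE) and 0.54 ± 0.07, with limma adjusted p of 9.30e-05 and 9.30e-04. MTOR (-0.06), RPTOR (0.21) and RPS6KB1 (-0.13) did not pass. Nor did TSC1 (-0.16) or TSC2 (0.05), whose products also restrain the complex.

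Among 17 partners of the cap and the poly(A) tail, 3 fell and 0 rose. These 3 were 17.6% of the list, beside 14.5% of all genes called in either direction and 8.18% called lower. PDCD4, an inhibitor of the helicase eIF4A, averaged 7.81 ± 0.17 in irradiated cells and 8.55 ± 0.20 in unirradiated cells (SD, n = 3 each), with a log2 difference of -0.74 (limma adjusted p 0.00273). NCBP2, a subunit of the nuclear cap-binding complex, fell by 0.61 (0.00218), and ZNF598, which marks collided ribosomes, fell by 0.23 (0.0485). Of 9 genes for eIF2 alpha kinases and phosphatases, 1 passed (11.1%, beside 14.5% of all genes): EIF2AK4 fell by 0.51 (0.00191). It encodes GCN2, the kinase that senses uncharged tRNA, and had 8.29, 8.31 and 8.26 in irradiated cells, against 8.78, 8.91 and 8.70 in unirradiated cells. EIF2AK3, encoding the endoplasmic reticulum kinase PERK, differed by 0.18 (0.111).

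Of 11 genes of elongation, 1 rose and 2 fell (27.3%, beside 14.5% of all genes). EEF1A2, a tissue-restricted form of the factor that brings tRNAs, rose by 0.35 (limma adjusted p 0.0102). DHPS, which carries out the first step in making the hypusine residue of eIF5A, fell by 0.41 (0.00425). DOHH, which completes that residue, differed by 0.04 (0.783). The elongation factor kinase gene EEF2K fell by 0.23 (0.0473). Of 11 accessory initiation factors, 1 passed (9.09%, beside 14.5%): BZW1, which competes with eIF5 for eIF2, rose by 0.27 (0.0359). Of 9 mitochondrial factors, 1 passed (11.1%, beside 14.5%): MTIF2 fell by 0.24 (0.0362). All 5 measured genes of termination and recycling stayed short of the threshold, which 14.5% of all genes passed. Their differences lay between -0.05 and 0.17. The calls of ZNF598, EEF2K, BZW1 and MTIF2 ended with any 1 array left out (adjusted p up to 0.162), and those of the other 7 genes held without each array in turn.

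**Figure D4:**
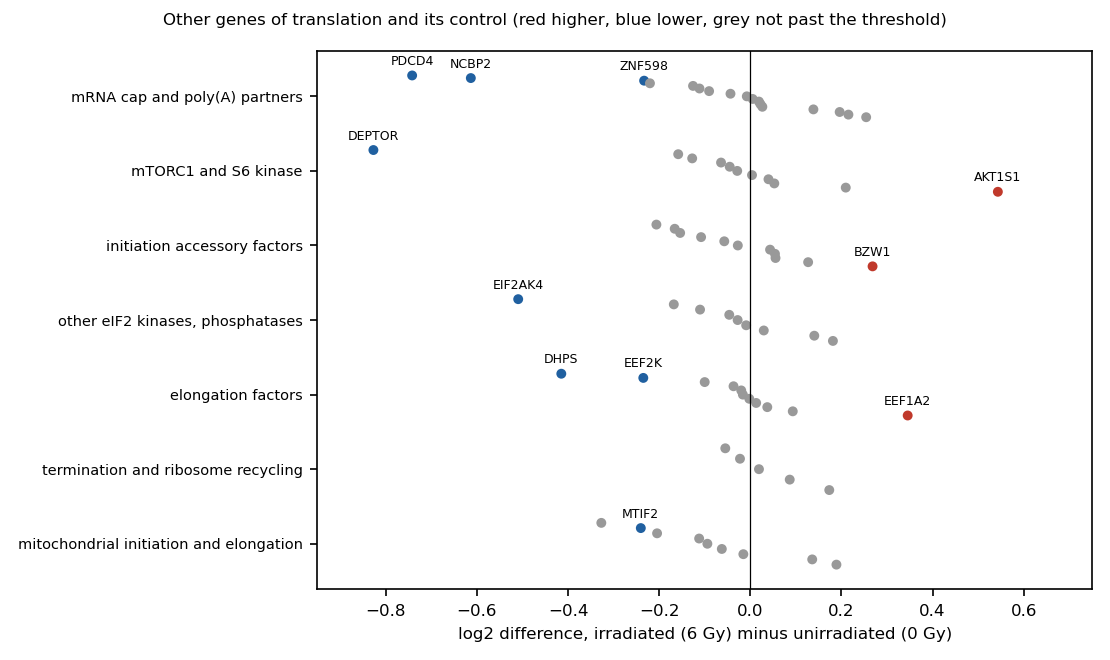
Log2 difference between irradiated (6 Gy) and unirradiated (0 Gy) cells on the x axis for the 73 measured genes of 7 further translation lists, 1 point per gene and 1 list per row. The 8 genes that fell (blue) include DEPTOR, PDCD4, NCBP2, EIF2AK4 and DHPS, and the 3 that rose (red) are AKT1S1, EEF1A2 and BZW1; the remaining 62 genes are grey.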

How the data were processed

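The 6 samples are Trizol extracts of total RNA, biotin-labelled for 1-colour arrays, per the labels' protocols. The deposited table holds 33297 probe set values per array, read as log2 intensities from their range of about 2 to 14. The log base is inferred, and every fold rests on it. How the authors normalized or background-corrected these deposited values, and with which software, is not given in the sources used here. No detection calls were used. Gene names come from GEO's platform annotation, which can be old: 19460 had 1 gene symbol, 1754 several and 12083 none. Of the 19460, 19429 matched RefSeq by Entrez ID.

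Groups were compared with limma 3.58.1 (lmFit, eBayes; 4 residual and 5.85 prior degrees of freedom) in R 4.3.3, two-sided, without covariates, over 18417 genes. Exact permutation of 3 arrays against 3 cannot go below p = 0.1, so none was run. The steps were tested on simulated data. Alternatives were 1 array left out in turn, a replicate block, other array scalings, array weights, an intensity trend with a robust prior, dim genes dropped, other uses of several probe sets and a stricter threshold. Tables and figures used Python 3.11.15, pandas 2.3.3 and matplotlib 3.10.9. Genes named in full were those past the threshold and, per family, those with the smallest p and the largest difference; others are given for completeness. The members and lists were chosen with earlier results of these data known, so no list test was made. Same-numbered samples were checked for pairing: their deviations from the group means correlated at -0.04, 0.10 and -0.11, so the numbers were not treated as pairs.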

Additional observations from a re-analysis of the deposited data

How the results depend on the processing

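Over the alternatives, the number of all genes changed was 2676 in the reported test, 1077 at an adjusted p under 0.01 and 1471 to 2184 with 1 array left out (1584 without unirradiated replicate 1 and 1471 without unirradiated replicate 2). Of initiation factor genes, 1 was higher and 2 were lower in the reported test. The number higher was 0 with 1 array left out (each of the 6), with quantile normalization, with array medians subtracted and at an adjusted p under 0.01; it was 2 with the dimmest genes dropped and 12278 left and 3 with an intensity trend and a robust prior, where 6 were lower. With 1 array left out, 2 to 3 were lower. With the dimmest genes dropped, 5 of the 45 initiation factor genes left (11.1%) passed in either direction, beside 25.9% of all genes left. With the intensity trend and robust prior, 9 of 48 (18.8%) passed, beside 17.6% of all genes. The median of the initiation factor genes was -0.056 with array medians subtracted (0.0088 over all genes) and -0.056 with array weights (0.028), against -0.026 as reported (0.039). With the median over all genes subtracted, it stayed below 0 in each of these settings. It ran from -0.053 to -0.022 with 1 array left out. Related translation genes changed numbered 11, 6 at an adjusted p under 0.01 and 7 to 8 with 1 array left out. With replicate number entered as a replicate block, 0 initiation factor genes were higher, the adjusted p of EIF6 being 0.0784, and 1919 genes changed in all. Same-numbered arrays did not deviate together, and of the irradiated arrays only replicate 2 correlated best with its own number. The causes of these shifts were not tested. Without detection calls, the levels of EIF4E, EIF5A2 and EIF2S3B may be background.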

Other observations

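The probe sets that list an initiation factor beside other genes were left out of the test and numbered 9. They give values in which the genes cannot be told apart. The 3 that list EIF5A with its copy EIF5AL1 read within 11.88 to 12.06 on the irradiated arrays and 11.96 to 12.11 on the unirradiated arrays, with differences between -0.03 and -0.05. The 2 that list EIF3C with EIF3CL hold identical values on every array and differed by 0.0023. The probe set that lists EIF4A1 with the read-through gene SENP3-EIF4A1 averaged 10.76 in irradiated cells and 10.91 in unirradiated cells. The one that lists EIF4A1 with the small nucleolar RNA SNORA48 read 9.82, 9.83 and 9.74 in irradiated cells, against 10.21, 10.06 and 10.00 in unirradiated cells, a difference of -0.29 without overlap. The probe set that lists EIF4A2 with SNORA4 differed by 0.21, with groups that overlap. These differences carry no test.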
